A study of Homo sapiens with 10 samples.

Results

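The 10 genes described here encode members of the BCL-2 family, the proteins that decide at the mitochondrial outer membrane whether a cell starts apoptosis. They were chosen by gene symbol: BCL2, BCL2L1, MCL1, BCL2A1, BCL2L11, BBC3, PMAIP1, BMF, BAX and BAK1. Each symbol belonged to 1 of the 57955 Ensembl genes in the data, and all 10 genes were among the 17288 genes that passed the filter on low counts.

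The family has 3 kinds of proteins. The anti-apoptotic members BCL-2, BCL-xL (encoded by BCL2L1), MCL-1 and A1 (encoded by BCL2A1) bind and restrain the effectors BAX and BAK, which otherwise form pores in the mitochondrial membrane and release cytochrome c. The BH3-only members BIM (encoded by BCL2L11), PUMA (BBC3), NOXA (PMAIP1) and BMF occupy the anti-apoptotic proteins and so free the effectors. In melanoma with mutant BRAF, ERK signalling is known to lower BIM, inhibitors of the pathway are known to raise BIM and BMF, and BCL2A1 is a known target of MITF, the master transcription factor of the melanocyte lineage.

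The data are mRNA sequencing of 5 human melanoma lines that all carry the BRAF V600E mutation: WM983A and WM983B, WM278 and WM1617, and WM902B. Each was sequenced as the original line (sensitive) and as the line made resistant to encorafenib, a BRAF inhibitor, and binimetinib, a MEK inhibitor (E+BRes). The sensitive lines were the originals, and the resistant lines had been grown for 3 to 5 months in the drug combination, starting at 1 nM and ending at 200 nM, and were then kept in 200 nM. The resistant libraries therefore differ from the sensitive ones in selection and in the presence of the drugs, and the contributions of selection and of the drugs cannot be told apart. Lines WM983A, WM278 and WM902B came from primary tumours and WM983B and WM1617 from metastases. Per the study's description, WM983A and WM983B came from 1 patient and WM278 and WM1617 from another, so the 5 lines stand for 3 patients. Each line had 1 library per state with no repeat culture, so lines take the place of replicates and p-values measure the spread between these lines.

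The 10 libraries held 13693922 to 18033247 counts each. Levels are given as CPM, each library's counts scaled to a common total with edgeR's TMM method, and 3 counts, taken as the detection limit, correspond to 0.172 to 0.230 CPM. Values are listed throughout in the order WM983A, WM983B, WM278, WM1617, WM902B. The library labelled resistant WM983A stood apart. Across the 17288 genes its log2 levels had a Pearson's r of 0.818 with sensitive WM983A and of 0.837 with sensitive WM902B, whereas the other 4 resistant libraries were closest to their own sensitive line, with an r of 0.886 to 0.982. BIRC3, BIRC2, TMEM123 and DCUN1D5, neighbouring genes of chromosome 11 chosen after their values were seen, held 0 to 9 counts in sensitive WM983A, 0 to 2 in sensitive WM983B and 0 to 48 in resistant WM983B, lines of the same patient, but 751 to 4891 counts in the library labelled resistant WM983A. The fitted changes of the members, and of the genes of other lists that were called, are therefore also given without line WM983A. The melanocyte label was checked on 8 markers (MITF, SOX10, PMEL, MLANA, TYR, DCT, TYRP1, S100B), whose summed level was 429 to 4500.5 CPM in the sensitive libraries and 89.8 to 4428.5 CPM in the resistant ones. None of the 8 was at 0 in any library. At least 2-fold lower were 8, 7 and 6 of them in resistant WM983A, WM983B and WM902B, against 19.4%, 11.2% and 12% of all genes. In resistant WM278 and WM1617, 0 of them were, against 7.02% and 3.79%. At least 2-fold higher were 0, 1, 3, 1 and 0 of them, against 16.9%, 16.2%, 12%, 2.83% and 15.4% of all genes. In sensitive WM278, PMEL, MLANA, TYR, DCT and TYRP1 were already low, at 0.251 to 4.42 CPM.

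Promoter sequences are shown for BCL2A1, the member with the lowest ratio in a line, and for BCL2L11, the member that was higher in every line. Both are the 250 bases before the RefSeq start site of the gene, on the gene's strand, in GRCh38.p14. In BCL2A1 (chr15:79971197-79971446, minus strand) the capitals mark CATGTG, an E-box variant that MITF-type factors can bind, 25 bases before the start. In BCL2L11 (chr2:111120664-111120913, plus strand) the capitals mark GTAAACA, the reverse complement of the forkhead motif TGTTTAC, 223 bases before the start.
BCL2A1: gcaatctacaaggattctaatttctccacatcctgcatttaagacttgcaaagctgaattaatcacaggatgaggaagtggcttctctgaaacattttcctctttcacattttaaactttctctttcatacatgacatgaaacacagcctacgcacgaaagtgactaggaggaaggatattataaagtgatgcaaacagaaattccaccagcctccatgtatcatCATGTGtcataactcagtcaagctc
BCL2L11: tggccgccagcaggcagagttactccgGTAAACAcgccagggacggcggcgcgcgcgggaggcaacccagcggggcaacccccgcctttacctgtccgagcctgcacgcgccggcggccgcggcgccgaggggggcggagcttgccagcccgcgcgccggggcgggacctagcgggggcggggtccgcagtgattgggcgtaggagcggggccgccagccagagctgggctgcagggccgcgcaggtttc
Both motifs and the E-box CACGTG were searched on both strands in the RefSeq windows from 250 bases before to 50 bases after the start. Of the 10 members, 9 had such a window. CATGTG was held by 11.1% and TGTTTAC by 3.42% of all 35116 windows, and among the members each was found in only the gene shown. CACGTG was held by 7.26% of all windows and, among the members, by those of BBC3 (1 match) and BAX (4 matches). The 3 motifs do not overlap each other in these windows, and a match is a description of the letters only.

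Among the 10 members, BCL2L11 and BMF rose in the resistant libraries and no member fell, when edgeR's quasi-likelihood test was read at an unadjusted p up to 0.05. This is 2 members higher, where 4.81% of all genes tested were, and 0 lower, where 2.34% were. With cell line as a replicate block, each resistant library was compared with the sensitive library labelled as the same line. In that fit 1 member (BCL2L11) was higher, where 5.7% of all genes were, and 2 (BCL2 and BCL2A1) were lower, where 4.99% were. No member and none of the 17288 genes passed after Benjamini-Hochberg adjustment in edgeR's test, with or without the block, whereas DESeq2's Wald test called 109 genes and no member. The median fitted log2 fold change of the 10 members was 0.17, against 0.03 for all genes.

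**Figure D1:**
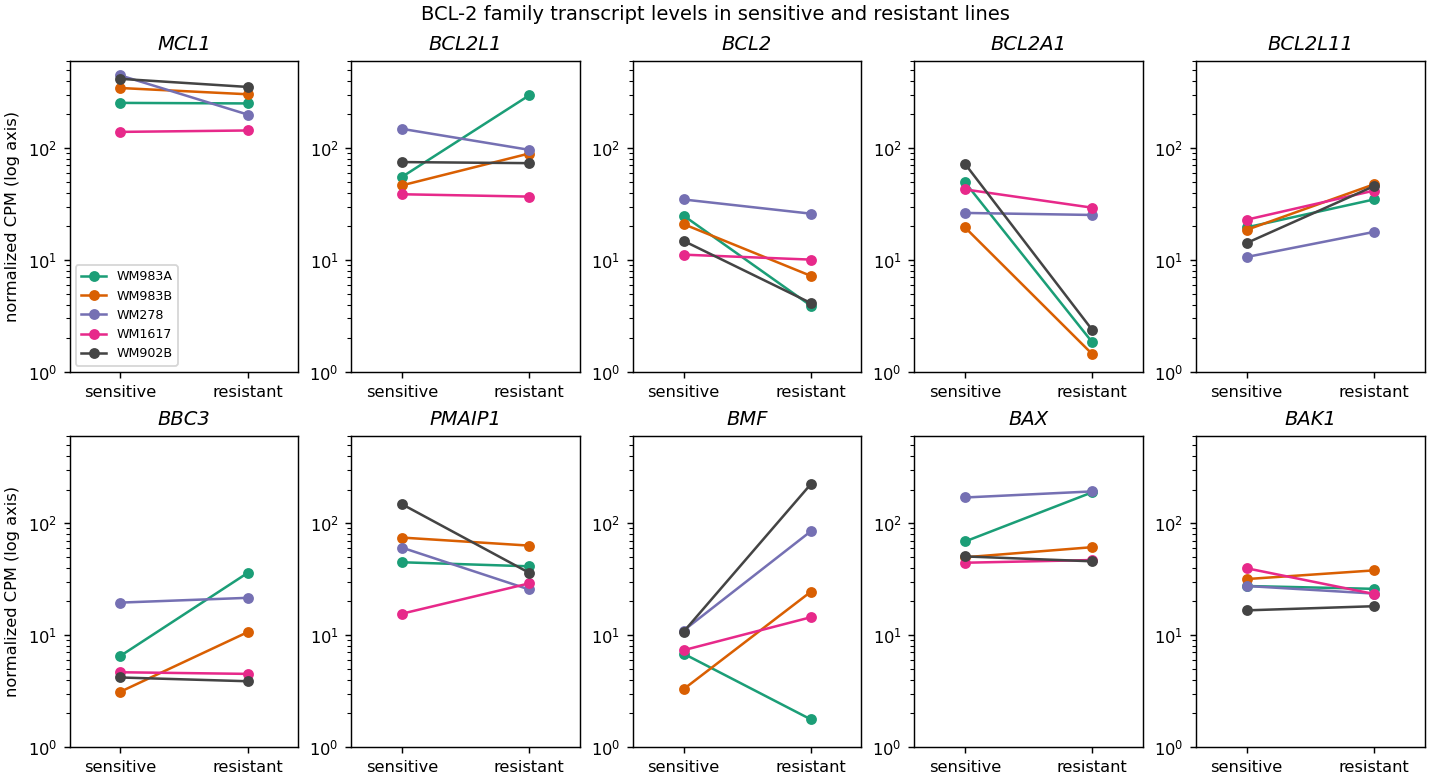
Normalized CPM (log axis) of the 10 members in the sensitive and the resistant library of each line, with 1 panel per gene and 1 line of colour per cell line; each point is 1 library. BCL2L11 slopes upward in all 5 lines, and BCL2A1 drops to between 1.44 and 2.37 CPM in WM983A, WM983B and WM902B while staying above 25 CPM in WM278 and WM1617.

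Of the anti-apoptotic members, BCL2A1, whose protein binds BIM and other BH3-only proteins, was nearly lost in 3 lines and kept in the other 2. The sensitive libraries held 49.4, 19.5, 26.3, 42.7 and 72.2 CPM. The resistant libraries held 1.84, 1.44, 25.3, 29.4 and 2.37 CPM. The resistant libraries of WM983A, WM983B and WM902B were below every sensitive library, whereas those of WM278 and WM1617 lay within the sensitive range, so the groups overlapped. Within lines the level was lower by 25.9-fold in WM983A, 13.0-fold in WM983B and 29.6-fold in WM902B, and by 1.04-fold in WM278 and 1.45-fold in WM1617. The fitted log2 fold change was -1.80 (SE 0.877, unadjusted p = 0.0657, adjusted p = 0.715, edgeR's quasi-likelihood test), and without single lines it ran from -1.24 (without WM902B, unadjusted p = 0.221) and -1.46 (without WM983A, unadjusted p = 0.158) to -2.39 (without WM278, unadjusted p = 0.0456) and -2.44 (without WM1617, unadjusted p = 0.0390). With cell line as a replicate block it was -2.85 (unadjusted p = 0.0242, adjusted p = 0.461, edgeR), a call that was lost without line WM983A (log2 fold change -2.21, unadjusted p = 0.0718 in edgeR), without WM983B (-2.51, unadjusted p = 0.0863) or without WM902B (-2.17, unadjusted p = 0.0733). The exact two-sided permutation p of the log2 levels, 5 libraries against 5, was 0.0397. The gene lies on chromosome 15 from 79960892 to 79971196 (minus strand, GRCh38) and shares no exon with another annotated gene.

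The lines in which BCL2A1 was low after resistance were also those in which most of the 8 melanocyte markers were at least 2-fold lower. SOX10, the neural crest factor of the melanocyte lineage, had 342, 307, 319, 344 and 319 CPM in the sensitive libraries. In the resistant libraries it had 6.47, 12.6, 274, 338 and 0.66 CPM. MITF had 34.3, 36.9, 14.5, 528 and 220.2 CPM in the resistant libraries, against 385, 264, 10.7, 627 and 402 CPM in the sensitive ones. MITF was therefore low in both WM278 libraries, where BCL2A1 stayed at 26.3 and 25.3 CPM. PMEL, MLANA, TYR, DCT and TYRP1 were also low in sensitive WM278, at 0.251 to 4.42 CPM, and so had little level to lose. Of the 8 melanocyte markers, TYRP1, a pigment enzyme, was called lower (log2 fold change -5.21, unadjusted p = 0.0158, edgeR). It was also called without line WM983A (-5.07, unadjusted p = 0.0416, edgeR) but not with cell line as a replicate block (-1.71, unadjusted p = 0.452, edgeR). The log2 ratios of TYRP1 were -7.74, -6.5, 2.95, -0.27 and 0.96, so it was higher in WM278 and WM902B. Sensitive WM278, WM1617 and WM902B held far less TYRP1 than sensitive WM983A (30.4 CPM). Without line WM983A, the only large fall was that in WM983B, from 247 to 2.67 CPM. The part of the melanocyte markers in the level of BCL2A1 was not tested. In these bulk libraries, fewer cells that express a gene and less RNA of it per cell cannot be told apart.

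**Figure D2:**
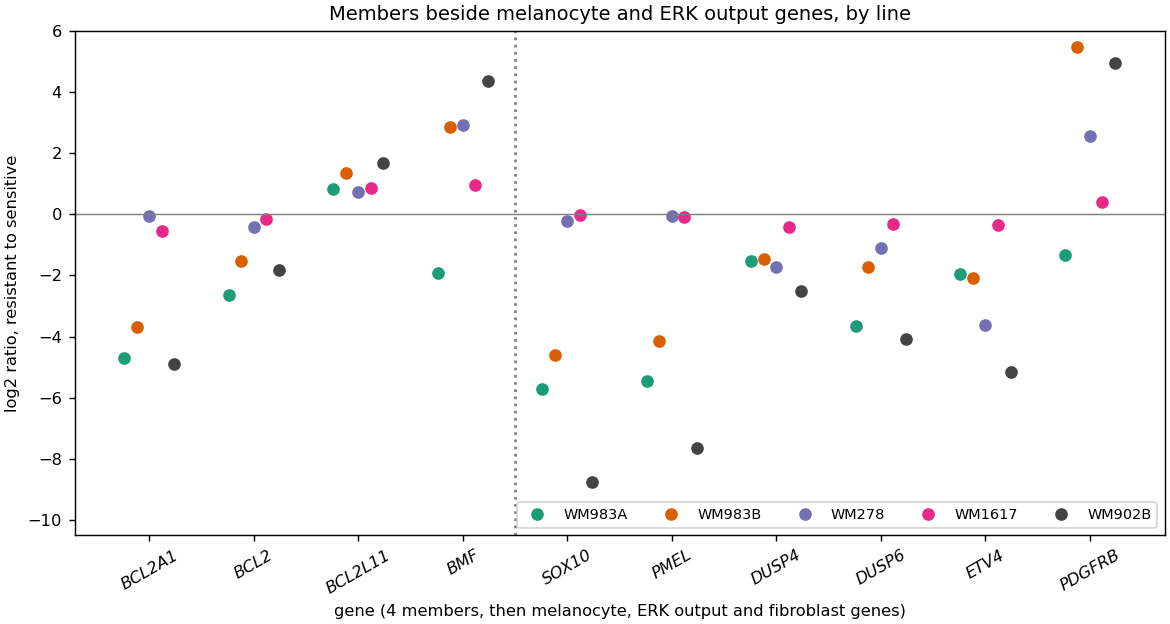
Log2 ratio, resistant over sensitive, in each of the 5 lines (1 point per line) for 4 members, left of the dotted line, and for the melanocyte genes SOX10 and PMEL, the ERK output genes DUSP4, DUSP6 and ETV4 and the fibroblast gene PDGFRB. BCL2A1 and SOX10 are both far below 0 in WM983A, WM983B and WM902B and near 0 in WM278 and WM1617.

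BCL2, the founding anti-apoptotic gene, had the lowest median level per length of the family over all 10 libraries, though not over the sensitive ones, where BMF and BBC3 were lower. Before resistance BCL2 stood at 24.9, 20.9, 34.8, 11.2 and 14.8 CPM. In the resistant lines it stood at 3.92, 7.22, 26.0, 10.1 and 4.13 CPM. Resistant WM278 was higher than every sensitive library but its own, so the groups overlapped, although the resistant library was the lower in each of the 5 lines. The log2 ratios were -2.65, -1.53, -0.42, -0.15 and -1.83, with counting errors of 0.09 to 0.22. Fitted over the lines, the log2 fold change was -1.05 (SE 0.553, unadjusted p = 0.0843, adjusted p = 0.732, edgeR), and without single lines it ran from -0.79 (without WM983A, unadjusted p = 0.229) to -1.49 (without WM278, unadjusted p = 0.00727), with unadjusted p of 0.198 without WM983B and 0.156 without WM902B. With cell line as a replicate block it was -1.31 (unadjusted p = 0.0176, adjusted p = 0.461, edgeR), and without line WM983A in the same fit -0.98 (unadjusted p = 0.0360, edgeR). That call was lost without WM983B (-1.25, unadjusted p = 0.0565, edgeR) or without WM902B (-1.16, unadjusted p = 0.0581, edgeR). BCL2 and BCL2A1 were the 2 members lower in all 5 lines, as were 5.33% of all genes tested. For BCL2A1 this does not hold firmly in WM278, where the log2 ratio was -0.06 with a counting error of 0.10 and turned to 0.026 when libraries were scaled by total counts only. BCL2 spans chromosome 18 from 63123346 to 63320128 (minus strand).

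BCL2L1 encodes BCL-xL, and was high in 1 library. Its level was 55.3, 46.5, 149, 38.7 and 75.05 CPM in the sensitive libraries. It was 296, 89.5, 96.6, 36.9 and 73.4 CPM in the resistant libraries. The library labelled resistant WM983A was the highest of all 10, and the other 9 overlapped. The log2 ratios were 2.42, 0.94, -0.62, -0.07 and -0.03. Over all lines the log2 fold change was 0.70 (SE 0.557, unadjusted p = 0.235, adjusted p = 0.826, edgeR) and turned to -0.06 without line WM983A. BCL2L1 (chromosome 20, 31664452 to 31723989, minus strand) shares 1735 exon bases with the antisense gene ABALON, whose counts were 21.7% to 32.7% of those of BCL2L1 in the 10 libraries. Nothing in the sources states that reads were counted by strand, so reads of these overlapping genes cannot be told apart. The level of BCL2L1 is therefore uncertain, by an amount that these counts do not give.

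MCL1, whose short-lived protein binds BIM, NOXA and BAK, was the member with the highest level per length. The sensitive libraries held 254, 345, 447, 139.7 and 416 CPM. The resistant libraries held 251, 303, 199.8, 144 and 352 CPM. The groups overlapped, and WM278 was the line with a change of more than 2-fold, a log2 ratio of -1.16. In the other 4 lines the log2 ratio lay between -0.24 and 0.04. The fitted log2 fold change was -0.36, with a 95% interval of -1.13 to 0.41 (unadjusted p = 0.327, adjusted p = 0.868, edgeR), and -0.43 without line WM983A. MCL1 lies on chromosome 1 from 150560895 to 150579738 (minus strand), and of 371 exon bases shared with ADAMTSL4 and ADAMTSL4-AS1 the counts of each of these genes were at most 13.9% of its own.

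Per length, the makeup of the anti-apoptotic transcripts differed between lines. In RPKM (CPM per kilobase of exon), the summed level of the 4 genes was 106, 87.8, 136, 75.5 and 159 in the sensitive libraries and 113, 72.1, 82.6, 62.2 and 76.8 in the resistant ones. BCL2A1 made up 47.0%, 22.4%, 19.4%, 56.9% and 45.8% of this sum in the sensitive libraries. In the resistant libraries it made up 1.64%, 2.01%, 30.8%, 47.4% and 3.10%. BCL2L1 went from 12.5% to 62.4% in WM983A, from 12.6% to 29.6% in WM983B and from 11.3% to 22.8% in WM902B, and stayed within 12.2% to 27.9% in WM278 and WM1617. MCL1 made up between 29.7% (sensitive WM1617) and 73.7% (resistant WM902B), and BCL2 at most 2.49%. Each share is that of 1 library, and no test was made.

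**Figure D3:**
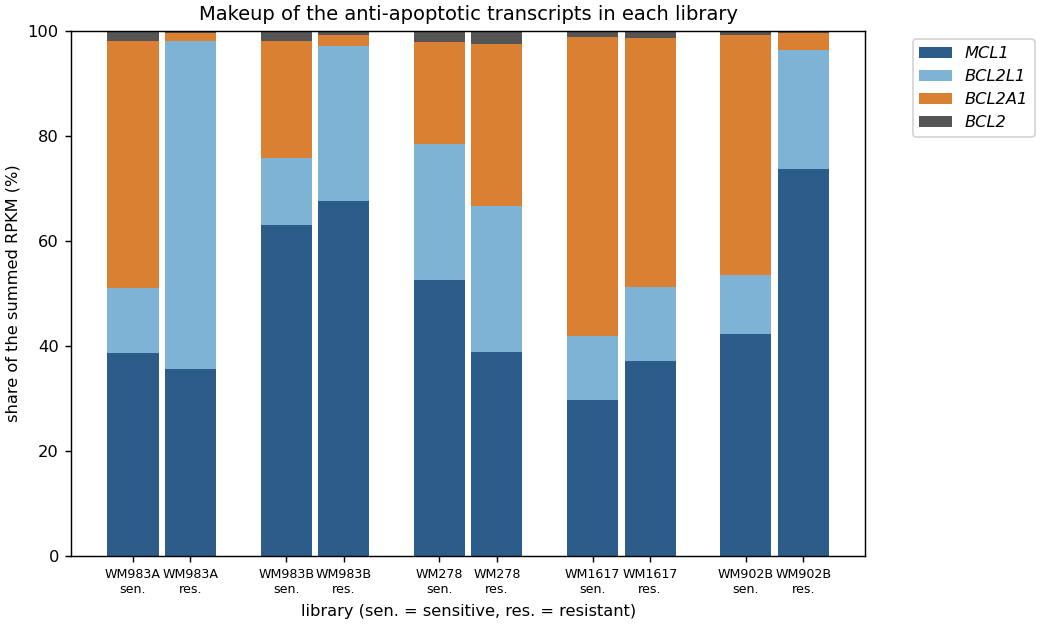
Stacked shares (%) of MCL1, BCL2L1, BCL2A1 and BCL2 in the summed RPKM of the 4 anti-apoptotic genes, 1 bar per library, with the sensitive and the resistant library of each line side by side. The BCL2A1 part shrinks to 1.64% to 3.10% in resistant WM983A, WM983B and WM902B and is 30.8% and 47.4% in resistant WM278 and WM1617.

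Of the BH3-only members, BCL2L11, which encodes the activator BIM, rose. Before resistance BCL2L11 stood at 19.6, 18.6, 10.6, 22.9 and 14.2 CPM. In the resistant lines it stood at 34.7, 47.4, 17.8, 41.7 and 45.6 CPM. The resistant library was the higher in each of the 5 lines, as was that of 5.74% of all genes tested, and the groups overlapped only because resistant WM278, at 17.8 CPM, lay below 3 of the sensitive libraries. The level was higher by 1.77-fold in WM983A, 2.54-fold in WM983B, 1.67-fold in WM278, 1.82-fold in WM1617 and 3.21-fold in WM902B. BCL2L11 was the member with the least spread between lines relative to its change, with a mean log2 ratio of 1.09 ± 0.41 (SD, 5 lines). Fitted over the lines, the log2 fold change was 1.12 (SE 0.314, unadjusted p = 0.0046, adjusted p = 0.630, edgeR), and 1.09 with the replicate block. Without line WM983A it was 1.20 (unadjusted p = 0.0130, edgeR), and the exact two-sided permutation p was 0.0317.

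BCL2L11 lies on chromosome 2 from 111119378 to 111168444 (plus strand) and shares 727 exon bases with MIR4435-2HG, a long non-coding RNA on the opposite strand. Whether the counting used strand is not given in the sources used here, so reads in these bases may belong to either gene and the level of BCL2L11 is uncertain there. MIR4435-2HG had between 85.4% and 587% of the counts of BCL2L11. Its own level was 42.2, 40.3, 62.4, 35.9 and 49.96 CPM in the sensitive libraries and 62.8, 41.9, 63.9, 35.6 and 73.1 CPM in the resistant ones. MIR4435-2HG was thus within 2 CPM of its sensitive level in WM983B, WM278 and WM1617, and higher in WM983A and WM902B. Its fitted log2 fold change was 0.26 (unadjusted p = 0.316, adjusted p = 0.861, edgeR). The part of MIR4435-2HG in the level of BCL2L11 was not tested.

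BMF, a BH3-only protein that in healthy cells is held at the cytoskeleton, had the largest fitted change of the family in edgeR without the block. With the block (-2.85) and in limma voom (-2.75) that of BCL2A1 was larger in size. Its level was 6.82, 3.28, 10.98, 7.32 and 10.7 CPM in the sensitive libraries, of which the value of WM983B was held as a date in the data and was recovered as 49.5 counts. It was 1.77, 24.3, 84.5, 14.4 and 222 CPM in the resistant libraries. All resistant libraries except the one labelled WM983A were above every sensitive library. The level was 7.29-fold, 7.65-fold, 1.96-fold and 20.7-fold higher in WM983B, WM278, WM1617 and WM902B, and 3.76-fold lower in WM983A, where the resistant library held 23 counts. Over all lines the log2 fold change was 3.15 (SE 1.01, unadjusted p = 0.0101, adjusted p = 0.630, edgeR), and without line WM983A 3.42 (unadjusted p = 0.0044, edgeR). The call was lost with cell line as a replicate block (2.07, unadjusted p = 0.0668, edgeR) and without line WM902B (2.15, unadjusted p = 0.0531, edgeR), and the exact two-sided permutation p was 0.175. With the block and without line WM983A it was 2.82 (unadjusted p = 0.0027, edgeR).

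The 3 lines in which BMF was highest against its sensitive level also had more transcripts of COL1A1 and PDGFRB, markers of fibroblasts, whereas the other fibroblast markers did not follow as a group. Of 6 fibroblast markers (COL1A1, COL1A2, DCN, LUM, PDGFRB, THY1) 4 passed the filter, and their summed level, all 6 included, was 65.3, 80.2, 10.7, 9.21 and 49.9 CPM in the sensitive and 8.73, 231, 95.2, 18.1 and 1570.4 CPM in the resistant libraries. COL1A1 held 1234.5 and PDGFRB 302.6 CPM of the sum in resistant WM902B. In WM983A, where BMF was lower, COL1A1 was also higher (0.782 CPM sensitive, 5.98 CPM resistant), whereas PDGFRB was lower (3.47 and 1.33 CPM). COL1A2 was at most 0.816 CPM in any library, and LUM (log2 fold change -0.66) and DCN (0.13) did not pass. COL1A2 and DCN were at 0 in the library labelled resistant WM983A and THY1 in resistant WM1617. COL1A1 rose with a log2 fold change of 6.11 (unadjusted p = 0.0056, adjusted p = 0.630, edgeR) and PDGFRB with one of 4.55 (unadjusted p = 0.0178, edgeR). With cell line as a replicate block COL1A1 was still called (4.34, unadjusted p = 0.0126, edgeR) and PDGFRB was not (2.89, unadjusted p = 0.0568, edgeR), and without line WM983A both were (6.16 and 4.88, unadjusted p = 0.0093 and 0.0236, edgeR). The part of these markers in the level of BMF was not tested. The 4 endothelial markers summed to 0.724 to 53.6 CPM in the sensitive and 0.213 to 5.23 CPM in the resistant libraries, and the highest value was that of KDR in WM278, which went from 53.3 to 5.16 CPM. The 5 leukocyte markers summed to at most 5.27 CPM in any library, and of 6 keratinocyte markers KRT10 alone passed the filter (log2 fold change 0.32, unadjusted p = 0.504, edgeR). BMF is on chromosome 15 from 40087890 to 40108892 (minus strand), and its antisense gene BMF-AS1 had at most 5.30% of its counts.

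BBC3, which encodes PUMA, was higher in resistant WM983B and in the library labelled resistant WM983A. The sensitive libraries held 6.52, 3.12, 19.5, 4.65 and 4.18 CPM. The resistant libraries held 35.9, 10.6, 21.5, 4.50 and 3.87 CPM. The log2 ratio was 2.45 in WM983A and 1.75 in WM983B, and lay between -0.11 and 0.14 in the other 3 lines, so the groups overlapped. The fitted log2 fold change was 1.01 (SE 0.715, unadjusted p = 0.188, adjusted p = 0.806, edgeR) and was 0.36 without line WM983A (unadjusted p = 0.649, edgeR). Without the sensitive WM278 library it was 1.70 (unadjusted p = 0.0310, edgeR).

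PMAIP1, which encodes NOXA, the partner of MCL-1, went both ways. Before resistance PMAIP1 stood at 44.8, 74.4, 60.5, 15.5 and 148 CPM. In the resistant lines it stood at 41.2, 63.1, 25.6, 29.0 and 36.1 CPM. The log2 ratios were -1.24 in WM278 and -2.03 in WM902B but 0.90 in WM1617, and within 0.24 of 0 in WM983A and WM983B. The sensitive range, 15.5 to 148 CPM, enclosed the whole resistant range. Fitted over the lines, the log2 fold change was -0.82 (SE 0.501, unadjusted p = 0.133, adjusted p = 0.775, edgeR). Without line WM1617 it was -0.99 (unadjusted p = 0.0473, edgeR), and without its sensitive library alone -1.07 (unadjusted p = 0.0220, edgeR). It was -0.29 without line WM902B (unadjusted p = 0.575), -0.34 without its sensitive library alone (unadjusted p = 0.460) and -0.96 without line WM983A (unadjusted p = 0.150, edgeR). PMAIP1 lies on chromosome 18 from 59899996 to 59904305 (plus strand).

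Within the BH3-only transcripts per length, the share of PMAIP1 was lower in the resistant library of every line but WM1617. PMAIP1 held 76.8%, 88.7%, 74.0%, 53.4% and 92.6% of the summed RPKM of the 4 genes in the sensitive libraries. In the resistant libraries its share was 52.9%, 66.1%, 32.0%, 56.4% and 25.3%. BMF went from 5.39% to 42.4% in WM278 and from 2.69% to 62.5% in WM902B, and was the first of the 4 in both resistant libraries. BBC3 went from 7.67% to 31.7% in WM983A and from 2.55% to 7.63% in WM983B. BCL2L11 held between 2.88% and 26.3% in any library. The summed RPKM was 26.7, 38.4, 37.4, 13.3 and 73.0 in the sensitive and 35.6, 43.7, 36.6, 23.5 and 65.3 in the resistant libraries, so that in WM1617 the sum was higher while PMAIP1 kept a like share.

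Of the effectors, BAX was high in 3 libraries. Its level was 68.6, 49.6, 169.8, 44.3 and 50.5 CPM in the sensitive libraries. It was 189, 61.1, 192, 46.9 and 45.7 CPM in the resistant libraries. Both WM278 libraries and the library labelled resistant WM983A stood above the other 7, and the groups overlapped. The log2 ratio was 1.46 in WM983A and between -0.14 and 0.30 in the other 4 lines. Over all lines the log2 fold change was 0.48 (SE 0.550, unadjusted p = 0.400, adjusted p = 0.891, edgeR), and 0.14 without line WM983A. BAK1 held 27.5, 31.7, 27.5, 39.6 and 16.6 CPM in the sensitive libraries. It held 25.9, 37.9, 23.5, 23.3 and 18.1 CPM in the resistant libraries. BAK1 was the member with the smallest fitted change, -0.15, with a 95% interval of -0.77 to 0.47 (unadjusted p = 0.601, adjusted p = 0.941, edgeR) and -0.17 without line WM983A, and no line changed 2-fold. The counts of its pseudogene BAK1P1 were 14.1% to 18.4% of its own and followed it across libraries (Pearson's r 0.968), so reads of these near-identical genes may have been shared and the level of BAK1 is uncertain. BAK1 lies on chromosome 6 from 33572547 to 33580293 (minus strand).

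**Figure D4:**
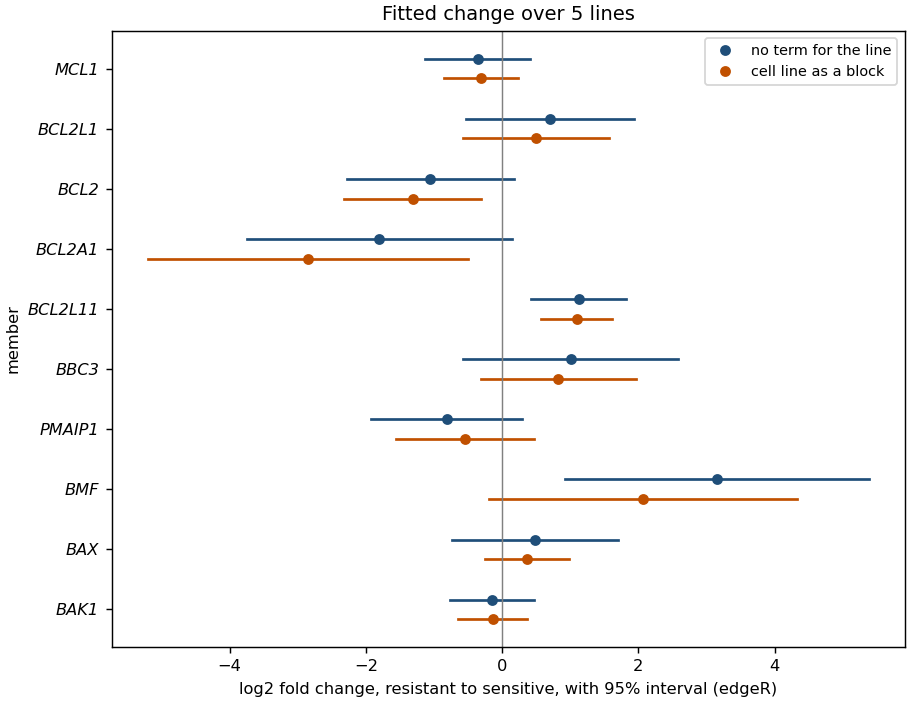
Fitted log2 fold change of each member with its 95% interval from edgeR's quasi-likelihood test over 5 resistant and 5 sensitive libraries, without a term for the line (blue) and with the line as a replicate block (orange). The interval of BCL2L11 lies above 0 in both fits, that of BMF only without the block, and those of BCL2 and BCL2A1 lie below 0 only with it.

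Taken line by line, 19 of the 50 ratios of a member in a line reached 2-fold. In WM983A, BCL2L1, BBC3 and BAX were at least 2-fold higher (3 of 10, against 16.9% of all genes) and BCL2, BCL2A1 and BMF at least 2-fold lower (3 of 10, against 19.4%). In WM983B, BCL2L11, BBC3 and BMF were higher (3 of 10, against 16.2%) and BCL2 and BCL2A1 lower (2 of 10, against 11.2%). In WM902B, BCL2L11 and BMF were higher (2 of 10, against 15.4%) and BCL2, BCL2A1 and PMAIP1 lower (3 of 10, against 12%). In WM278, BMF alone was higher (1 of 10, against 12%) and MCL1 and PMAIP1 were lower (2 of 10, against 7.02%). In WM1617, 0 of the 10 members reached 2-fold in either direction, against 2.83% of all genes higher and 3.79% lower. With 1 library per state there is no replicate check within a line, and the counting errors of the log2 ratios, at most 0.33, cover the counting of reads only.

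**Figure D5:**
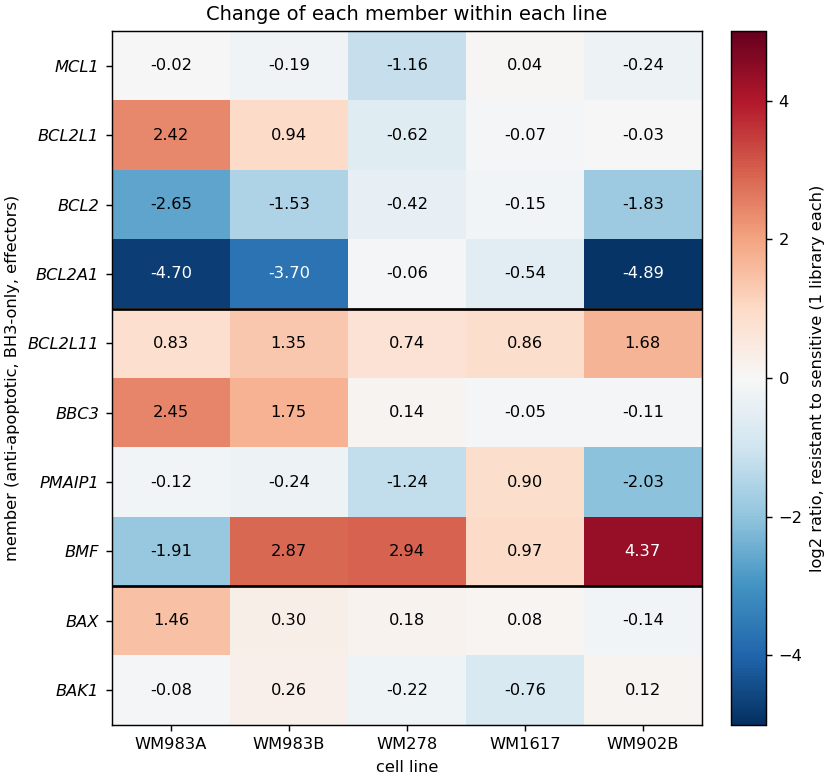
Log2 ratio, resistant over sensitive, for each member (rows, anti-apoptotic, BH3-only and effector members divided by lines) in each cell line (columns), from -5 in blue to 5 in red. BCL2L11 is red in all 5 columns, BCL2 and BCL2A1 are blue or near white in all 5, and the WM1617 column has no value of 1 or more in size.

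Ordered by the median RPKM over the 10 libraries, the members ran MCL1 (44.7), BCL2A1 (25.9), BAX (21.6), PMAIP1 (19.7), BCL2L1 (17.7), BAK1 (12.1), BCL2L11 (3.15), BMF (1.99), BBC3 (1.75) and BCL2 (1.03). This order pools both states. In the sensitive libraries the medians ran MCL1 (55.4), BCL2A1 (42.9), PMAIP1 (27.7), BAX (19.5), BCL2L1 (13.2), BAK1 (12.4), BCL2L11 (2.76), BCL2 (1.66), BBC3 (1.46) and BMF (1.34). In the resistant libraries they ran MCL1 (40.3), BAX (23.6), BCL2L1 (21.3), PMAIP1 (16.5), BAK1 (10.6), BCL2L11 (6.18), BMF (4.46), BBC3 (3.33), BCL2A1 (2.39) and BCL2 (0.573). Most neighbours in the pooled order did not differ beyond the spread between libraries: MCL1 was above BCL2A1 in 6 of the 10 libraries, and BCL2A1 above BAX, PMAIP1 above BCL2L1 and BMF above BBC3 in 5 each. BAK1 was above BCL2L11 in all 10 libraries and BBC3 above BCL2 in 9. With the length of the canonical transcript in place of all exons, the pairs BCL2A1 and BAX, PMAIP1 and BCL2L1, and BMF and BBC3 changed places.

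Across the 10 libraries some members had like patterns, which is a description only, since the libraries of a line or patient are not independent. BBC3 and BAX, both on chromosome 19 (47220822 to 47232766 and 48954815 to 48961798), had a Pearson's r of 0.95. BCL2L1 had an r of 0.87 with BBC3 and 0.81 with BAX, and MCL1 one of 0.83 with PMAIP1. BCL2L11 had an r of -0.85 with BCL2 and -0.72 with BCL2A1. Over the 8 libraries without line WM983A these 6 values were, in the same order, 0.94, 0.78, 0.76, 0.83, -0.88 and -0.71. Of all genes tested, the one with the highest r to a member was ITGB8 for BCL2 (0.968), MYPOP for BCL2L1 (0.984), RNF25 for MCL1 (0.955), MGAT5 for BCL2A1 (0.963), IDH1 for BCL2L11 (0.928), ZNF581 for BBC3 (0.972), COPS7B for PMAIP1 (0.947), PCBP3 for BMF (0.966), GLIS3 for BAX (0.993) and BAK1P1 for BAK1 (0.968).

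ERK output genes, which read the activity of the pathway that both drugs block, were lower in part in 4 of the 5 lines. Of the 12 (DUSP4, DUSP6, SPRY2, SPRY4, SPRED2, ETV4, ETV5, PHLDA1, CCND1, FOSL1, EPHA2, EGR1), 7, 4, 9, 0 and 9 were lower by 2-fold or more in resistant WM983A, WM983B, WM278, WM1617 and WM902B, where 19.4%, 11.2%, 7.02%, 3.79% and 12% of all genes were. At the same time 3, 2, 1, 0 and 1 of the 12 were higher by 2-fold or more, against 16.9%, 16.2%, 12%, 2.83% and 15.4% of all genes. DUSP4, an ERK phosphatase, fell with a log2 fold change of -1.24 (unadjusted p = 0.0325, edgeR) and SPRED2, an inhibitor of the pathway, with one of -0.92 (unadjusted p = 0.0202, edgeR), whereas EGR1, an immediate early gene, rose with one of 1.56 (unadjusted p = 0.0272, edgeR). Without line WM983A only SPRED2 of these 3 was called (-0.93, unadjusted p = 0.0457), with DUSP4 at -1.15 (unadjusted p = 0.0905) and EGR1 at 1.54 (unadjusted p = 0.0650, edgeR). With cell line as a replicate block 7 of the 12 fell, where 4.99% of all genes did, and 0 rose, where 5.7% did. In WM1617, where BCL2L11 was 1.82-fold higher, DUSP6 went from 213 to 172 CPM and ETV4 from 213 to 167 CPM. The part of ERK output in the level of BCL2L11 was not tested.

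The 12 transcription factors known to act on member genes include MITF of the melanocyte markers. Of these 12, 1 was called higher, where 4.81% of all genes tested were, and 1 lower, where 2.34% were. STAT3 rose (0.85, unadjusted p = 0.0137, edgeR) and E2F1 fell (-1.03, unadjusted p = 0.0377, edgeR). STAT3 was higher in all 5 lines, and E2F1 lower in all but WM1617. Without line WM983A neither was called (0.65, unadjusted p = 0.0631, and -0.99, unadjusted p = 0.0758, edgeR). With cell line as a replicate block both were (0.88, unadjusted p = 0.0137, and -0.97, unadjusted p = 0.0147, edgeR). The list had a median log2 fold change of 0.11, against 0.03 for all genes.

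In the rest of the apoptosis machinery no gene passed without the block. Of 11 other BCL-2 family genes 6 passed the filter, and the smallest p were those of BOK, a BAX-like effector (log2 fold change 0.89, unadjusted p = 0.101, edgeR), and BID, the BH3-only substrate of caspase 8 (0.51, unadjusted p = 0.285, edgeR). Of 12 genes of the apoptosome, the caspases and mitochondrial release factors, these were CASP6 (0.68, unadjusted p = 0.0585, edgeR) and CYCS, cytochrome c (-0.47, unadjusted p = 0.0732, edgeR). Of 7 inhibitors of apoptosis they were CFLAR, which blocks caspase 8 (0.92, unadjusted p = 0.0775, edgeR), and BIRC6 (0.27, unadjusted p = 0.256, edgeR). Of 10 death receptor genes 7 were tested, with TRADD (0.71, unadjusted p = 0.0573, edgeR) and TNFRSF1A (0.82, unadjusted p = 0.179, edgeR) first. Of 7 regulators of member protein stability BTRC (0.36, unadjusted p = 0.139, edgeR) and FBXW7 (0.50, unadjusted p = 0.143, edgeR) came first. With the block BOK, CFLAR and TRADD were higher and APAF1, the scaffold of the apoptosome, lower at an unadjusted p up to 0.05. These are 7.69% and 2.56% of the 39 genes tested in the 5 lists, near or below the 5.7% and 4.99% of all genes.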

How the data were processed

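Per the labels and the study's methods, poly(A) RNA of 5 cell lines, each sensitive and resistant (10 libraries), was sequenced from 1 end over 75 cycles. Alignment by the authors used HISAT2 and GRCh38 (hg38), and StrandNGS gave the quantities; versions, gene annotation, strand setting and the handling of shared reads are not given in the sources used here. The raw values the authors deposited are expected counts, reads per Ensembl gene with fractions. The normalized values the authors deposited are on a log2 scale, hold the log2 ratio of resistant over sensitive within a line (0 in the sensitive libraries), and were used only to recover 455 raw values of sensitive WM983B that were held as dates. All 455 recovered values lay within 0.01 of a reading of the date.

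Expected counts were rounded, filtered with filterByExpr by state (17288 genes kept), scaled by TMM and tested with the two-sided quasi-likelihood test of edgeR 4.0.16 in R 4.3.3, 5 resistant against 5 sensitive libraries, with Benjamini-Hochberg adjustment over all genes. A call was an unadjusted p of at most 0.05. Alternatives used cell line as a replicate block, DESeq2 1.42.0, limma 3.58.1 voom, other filters, and fits without each line or library. The pairing for the block comes from the stated derivation of each resistant line from its sensitive line. As a check, the deviations of both libraries of a line from their state's means had an r of 0.36 to 0.67 in 4 lines (WM278 0.67, WM1617 0.66, WM983B 0.52, WM902B 0.36) and of -0.08 in WM983A. Within a line, the log2 ratio was taken after adding 1 to the normalized counts, with no test. Single members were also compared by exact permutation (252 splits, smallest possible p 0.00794). These p were not adjusted over the members. Lengths and positions are those of GENCODE 44. Intervals are 95% intervals, and counting errors cover the counting of reads only. Other steps ran in Python 3.11.15 (pandas 2.3.3, scipy 1.17.1, numpy 2.4.6; figures with matplotlib 3.10.9), and the fits were tested on simulated data. Libraries held 13693922 to 18033247 counts, and members at 23 or 24 counts in a library carry the largest counting errors.

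Members and gene lists were chosen with earlier results of these data known. All 10 members are named. Of the other lists the genes at an unadjusted p of at most 0.05 are named or, where none passed, the 2 with the smallest p, and for each member the gene with the highest Pearson's r over the libraries. The fits that combine the block with a left-out line, and the values of other lists and of correlations without line WM983A, were added after seeing the data. The result of 1 further list is not reported here.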

Additional observations from a re-analysis of the deposited data

Results flagged for a closer look

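For 30 sets of 5 values, the log2 ratios of each member over the 5 lines and its log2 levels over the libraries of each state, the gap between the end value and its neighbour was compared with the range of the set. Chance alone sets apart about 5% of such sets. Among them 2 stood out. The log2 ratio of MCL1 in WM278 was -1.16, and its gap was a share of 0.765 of the range. The log2 ratio of BAX in WM983A was 1.46, and its gap was a share of 0.723 of the range. The latter rests on the library labelled resistant WM983A. The causes of both were not tested.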

How the results depend on the processing

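The number of members called was 2. It was 2 to 3 with other size factors, tools, filters or the replicate block, 1 without the genes held as dates (which leaves out BMF), and 1 to 4 when a line or library was left out: 4 without line WM278, without line WM1617 or without the resistant WM278 library, and 1 without line WM902B. With the replicate block it was 3, and 1 to 3 when a line was left out of that fit, with 1 left without WM983B or without WM902B. BCL2L11 was called under every alternative run, at log2 fold changes of 0.95 to 1.30. BMF was not called with limma voom (1.87, unadjusted p = 0.148), with the replicate block or without line WM902B, and with the block it was called only without line WM983A (2.82, unadjusted p = 0.0027, edgeR). BCL2 was called with limma voom, with the replicate block and without line or resistant library WM278 and not in the other fits of all 5 lines. BCL2A1 was called in these and with DESeq2's Wald test and without line or resistant library WM1617. PMAIP1 was called without line or sensitive library WM1617 and BBC3 without the sensitive WM278 library. The block changed no other call. Fitted changes turned in sign for BCL2L1 without line WM983A (range over left-out lines and libraries -0.062 to 1.20) and for BAK1 without line WM1617 (range -0.33 to 0.024, and 0.012 with the block). Of 50 ratios within lines, 19 reached 2-fold and 10 reached 4-fold, and the count at 2-fold without a line was 13 to 19. The shares of all genes at 2-fold are given line by line above, and none was taken at 4-fold. The number of members with an exact permutation p of at most 0.05 was 2 with either scaling. With TMM scaling these were BCL2L11 (exact permutation p = 0.0317) and BCL2A1 (0.0397), and not BMF (0.175). That test leaves out the pairing by line, and no share of all genes was taken for it. The median log2 fold change of all genes was at most 0.0504 in size except without the filter on low counts (0.13). With 1 library per line and state, the spread between 5 lines of 3 patients limits every test.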

Other observations

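Whether a member changed differently in the lines of primary origin (WM983A, WM278, WM902B) and of metastatic origin (WM983B, WM1617) was tested as an interaction in edgeR with cell line as a block. At an unadjusted p of at most 0.05, 0 of the 10 members passed, and 319 of the 17288 genes did. The smallest p of a member was 0.0843, for PMAIP1, whose log2 change was higher by 1.46 in the metastatic lines (95% interval -0.27 to 3.20, adjusted p = 1 in edgeR). Without line WM902B, which leaves both pairs of lines that share a patient, it was 1.02 (unadjusted p = 0.195 in edgeR), and again 0 members passed.

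Between the lines of 1 patient, WM278 and WM1617, the sensitive libraries already differed in several members. Sensitive WM278 held 149 CPM of BCL2L1, 447 of MCL1, 169.8 of BAX, 19.5 of BBC3 and 60.5 of PMAIP1, against 38.7, 139.7, 44.3, 4.65 and 15.5 in sensitive WM1617. Each is a value of 1 library, with no replicate check. HRK, a BH3-only gene below the filter on low counts, was chosen after its values were seen. It held 15.0 CPM in sensitive and 7.31 CPM in resistant WM1617, and at most 1.44 CPM in the other 8 libraries. The log2 ratios were -1.92, -1.54, -1.54, -1.03 and -2.16. A lower resistant library in each line was also seen for 5.33% of all genes tested. In WM278 the ratio compares 0.125 CPM, below the detection limit of 0.188 CPM in that library, with 0 CPM, so no fall is shown there. Outside WM1617 the resistant libraries held at most 0.271 CPM of HRK, near or below the detection limit.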
